A study of Mus with 9 samples.

Results

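A repeated block on mouse chromosome 4 was examined in the hippocampus of SAMP8 and SAMR1 mice through 10 gene symbols, Gm3893, Gm10600, Fam205a2, Gm21968, Gm10592, Gm13308, Gm10597, Gm21586, Gm12394 and Ccl27a. The symbols were chosen from the strain comparison itself, because their SAMP8 averages lay far above the SAMR1 averages, so the strain differences given for them are a description and not a test. Probe sets of chromosome 4 or of its unplaced scaffolds that name at least 1 of these symbols were taken as members, which gave 14 of 22206 probe sets, 12 of them on the assembled chromosome and 2 on a scaffold. A probe set is the group of short array probes that reports 1 transcript cluster, and 5 of the 14 carry more than 1 symbol.

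Hippocampal RNA was hybridized to Clariom S Mouse arrays, 3 per group and 9 in all; the methods speak of 3 hippocampal samples per group and the series record of duplicate RNA samples. The methods give the SAMP8 mice as male and 16 weeks old, and describe acclimatization, dosing and testing after that, so the mice were older when the hippocampus was taken if this is their age at the start. SAMP8 is an inbred mouse strain prone to accelerated senescence with early deficits of learning and memory, and SAMR1 is the related strain with normal aging that served as control. The SAMR1 and SAMP8 groups received vehicle (saline by the sample records, water by the methods), and the TG-treated SAMP8 group received trigonelline (TG), a plant alkaloid, by mouth at 5 mg/kg per day. Dosing ran for 30 days and, for TG, through 8 further days of behavioral testing. All 3 groups went through the water maze before the hippocampus was taken. SAMP8 and SAMR1 differ as whole strains, so a difference between them cannot be assigned to age or to any single locus. A description attached to the sample records speaks of a macrophage cell line, so the tissue was checked on marker genes: 6 genes marking hippocampal neurons, among them Neurod6 and Prox1, had SAMP8 averages from 8.47 to 14.85, and Neurod6 stood at 14.86, 14.85 and 14.88 in SAMR1, SAMP8 and TG-treated SAMP8.

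Every value below is the authors' average of a group on the log2 scale, on which a difference of 1 is a 2-fold difference. The SAMP8 column of both deposited tables was identical (0 of 22206 probe sets differed), and the strain comparison and the TG comparison therefore share their SAMP8 arrays. No value of a single array was used here, so the spread between arrays is unknown, no test across arrays was run, and no neighbouring values in an order of levels can be called different beyond their spread. In place of a test, each count of members is set beside the share of all probe sets past the same limit. The signal comes from bulk tissue, in which fewer cells of a type and less RNA per cell cannot be told apart.

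The neighbourhood holds the genes of several chemokines, small secreted proteins that guide migrating cells. Ccl27a encodes a chemokine best known from keratinocytes of the skin, which acts through the receptor Ccr10. Ccl19 and the Ccl21 genes encode ligands of Ccr7 that bring lymphocytes and dendritic cells into lymph nodes, and Il11ra1 encodes the receptor chain for interleukin 11. Long stretches of this region are repeated in the mouse genome, so that many of its genes are present as near-identical copies and pseudogenes, among them the Fam205a genes, relatives of the Spata31 genes of the testis. The symbols that begin with Gm are predicted genes, and no function was assigned to those treated here. An array probe that matches several copies reports them together, so a value under 1 symbol can hold signal of other copies.

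In the GRCm38 annotation of RefSeq, 7 of the 10 symbols could be placed, 6 by their symbol and 1 (Gm13308) as an older name of Gm21953, and Gm21968, Gm10592 and Gm10597 were not placed. The placed genes span chr4:41769467-42804092, a length of 1034626 bases. At the lower end lies Ccl27a at chr4:41769467-41774225, a protein-coding gene whose annotated span overlaps that of Il11ra1. Gm3893, a transcribed pseudogene at chr4:42089373-42092930, overlaps the span of another predicted gene, Gm21104. Gm10600, a pseudogene at chr4:42244297-42244748, overlaps the annotated span of Ccl21b. The gene listed as Gm13308 is protein-coding, lies at chr4:42293864-42294898 and overlaps Fam205a3. Gm21586 at chr4:42438686-42448653 and Fam205a2 at chr4:42522437-42537578 are also protein-coding. Gm12394, a transcribed pseudogene at chr4:42790214-42804092, forms the upper end. Of the 50 RefSeq genes that touch this span, 24 are pseudogenes (48.0%) and 19 are protein-coding, while pseudogenes make up 20.0% of the 2854 genes placed on the whole chromosome.

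All 14 member probe sets were higher in SAMP8 than in SAMR1, by 2.44 to 10.37 on the log2 scale, with a median of 4.46, which is a 22.0-fold difference. The median over all 22206 probe sets was 0.00. Each of the 14 lay more than 2-fold higher in SAMP8, a limit passed by 0.797% of all probe sets, and 0 were lower by more than 2-fold, against 1.43% of all. More than 10-fold higher were 12 of the 14, against 0.063% of all probe sets. Since the symbols were picked on this contrast, nothing is read from these shares. For description the members were split into 2 ranges. In the upper range 5 probe sets differed by at least 7.22, or 149-fold, and the other 9 differed by at most 4.66, or 25.3-fold. A further empty interval, from 7.77 to 10.37, set Gm3893 apart within the upper range. Background signal was not measured here, so folds above low SAMR1 averages are uncertain.

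**Figure D1:**
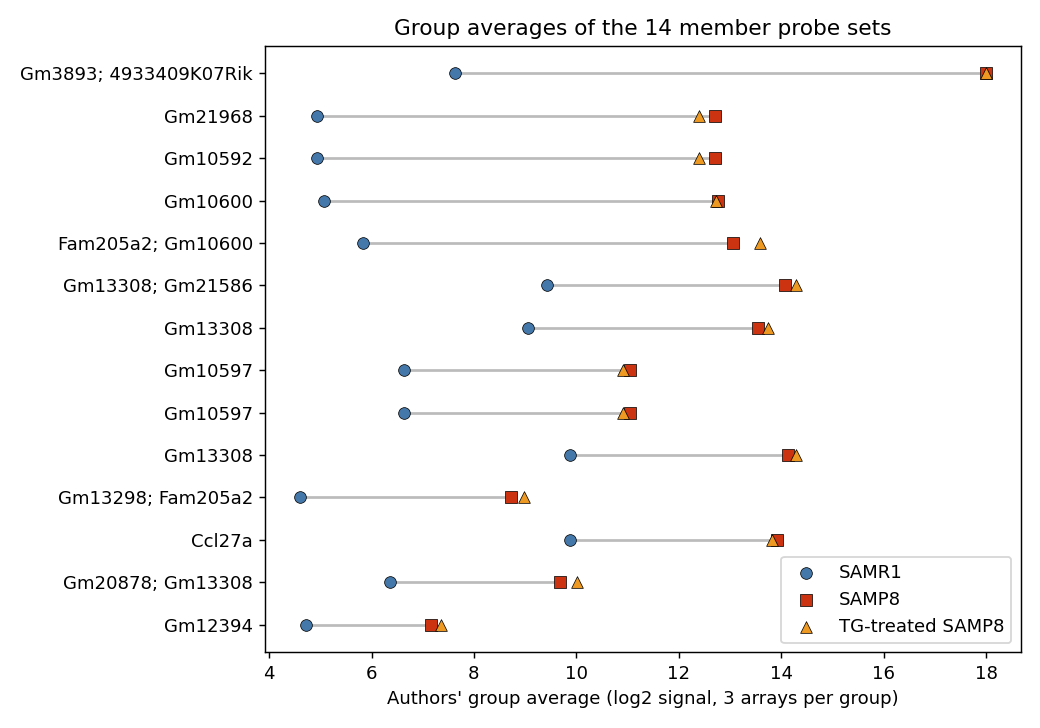
Authors' group averages (log2 signal, x axis) of the 14 member probe sets, 1 per row and ordered by the strain difference, with circles for SAMR1, squares for SAMP8 and triangles for TG-treated SAMP8; no error bars are drawn because values per array were not used. In every row the 2 SAMP8 groups lie close together, at most 0.54 apart, and to the right of SAMR1.

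The upper range was led by the probe set of Gm3893, which also names 4933409K07Rik. Its average was 7.63 for SAMR1, 18.00 for SAMP8 and 17.99 for the TG-treated group, so that SAMP8 stood 1323-fold above SAMR1. This was the highest strain difference of the whole array. The other probe sets that name 4933409K07Rik differed between the strains by 1.48 to 2.12. Gm21968 and Gm10592 had averages of 4.93, 12.70 and 12.39 in the same order of groups, a difference of 7.77 between the strains. Gm10600 stood at 5.07 in SAMR1, 12.76 in SAMP8 and 12.72 with TG. The scaffold probe set that names both Fam205a2 and Gm10600 stood at 5.83, 13.05 and 13.59. Gm10600 therefore has 2 probe sets, with strain differences of 7.69 and 7.22, whereas the other probe set of Fam205a2 lies in the lower range.

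Within the lower range, Gm13308 is named by 4 probe sets, whose strain differences ran from 3.31 to 4.66. The one shared with Gm21586 had averages of 9.42 in SAMR1, 14.08 in SAMP8 and 14.28 with TG. Those that name Gm13308 alone stood at 9.05, 13.55 and 13.75, and at 9.88, 14.13 and 14.29. The scaffold probe set shared with Gm20878 gave 6.37, 9.68 and 10.02, and its difference of 3.31 between the strains was the smallest of the 4. Gm10597 is named by 2 probe sets, each with averages of 6.63, 11.05 and 10.91. The probe set of Gm13298 and Fam205a2, which RefSeq treats as 1 gene, stood at 4.60, 8.73 and 8.97.

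Ccl27a, the chemokine gene among the members, averaged 9.88 in SAMR1, 13.92 in SAMP8 and 13.81 with TG. SAMP8 was 16.4-fold above SAMR1. Its receptor gene Ccr10, on chromosome 11, was not higher in SAMP8, with averages of 4.58 in SAMR1, 3.74 in SAMP8 and 4.02 with TG. These lie below the medians of all probe sets, 6.09, 6.04 and 6.07 in the same order. Background was not measured, so whether Ccr10 was detected is unknown. Gm12394 showed the smallest strain difference of the members, 2.44, with averages of 4.72, 7.16 and 7.36. A strain difference of at least that size was found for 25 probe sets of the array, of which 11 were not members. Of these 11, 8 also lay on chromosome 4 or its scaffolds, so the list of members does not hold every probe set of the block with a difference of this size.

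With TG, the members' averages stayed within 0.54 of the SAMP8 averages. The differences between TG-treated SAMP8 and SAMP8 ran from -0.31 for Gm21968 and Gm10592 to 0.54 for the probe set of Fam205a2 and Gm10600. Of the 14 probe sets, 7 were higher and 7 lower than in untreated SAMP8, and the median difference was 0.075, against 0.01 over all probe sets. The 4 member probe sets with averages identical to another member were all among the lower. With identical probe sets counted once the median was 0.18, and after centring each group on its median it was 0.045. No member (0 of 14) lay past 2-fold in either direction, a limit passed by 0.761% of all probe sets, and at that background a count of 0 among 14 is no result about the members. The median size of the difference, without its sign, was 0.20 for the members and 0.20 over all probe sets, and 89.9% of all probe sets differed by no more than the 0.54 of the most distant member. All 4 probe sets that name Gm13308 were higher with TG, by 0.16 to 0.34, and both of Gm10597 were lower, by 0.14.

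The TG-treated mice are a further group of SAMP8 animals, compared here with the same SAMR1 arrays. Their closeness to SAMP8 was part of how the block was picked out, so these values too are a description. Against SAMR1, the TG-treated SAMP8 group was higher for all 14 member probe sets, by 2.64 for Gm12394 to 10.36 for Gm3893. All 14 passed the 2-fold limit, which 1.12% of all probe sets passed in that direction. Ccl27a stood 15.2-fold above SAMR1 in this group. Gm10600 stood 201-fold above it, over a low SAMR1 average of 5.07 whose background was not measured.

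**Figure D2:**
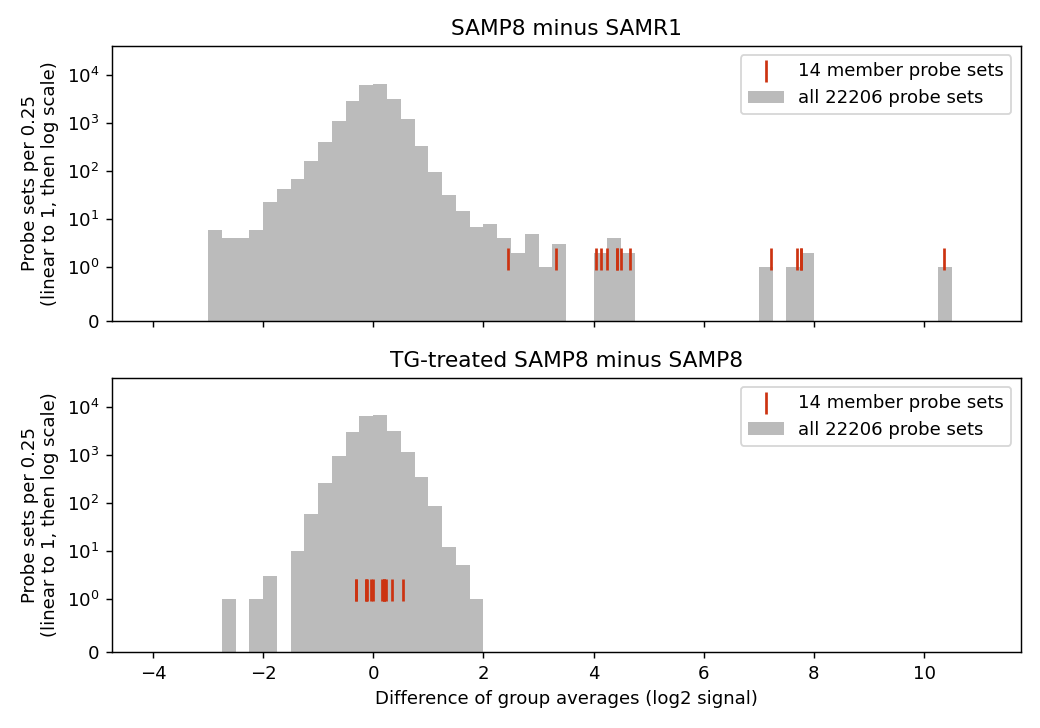
Number of probe sets (y axis, linear up to 1 and logarithmic above) by difference of group averages (log2 signal, x axis, in bins of 0.25) for SAMP8 minus SAMR1 above and TG-treated SAMP8 minus SAMP8 below, with grey bars for all 22206 probe sets and red marks for the 14 members. The members lie between 2.44 and 10.37 in the strain comparison and between -0.31 and 0.54 with TG.

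Several members carried the same values as one another. The averages of Gm21968 and Gm10592 were equal in all 3 groups to the last digit deposited, and so were those of both Gm10597 probe sets. That makes 4 of 14 member probe sets (28.6%) with a twin among the members, and 12 distinct sets of values. Over the whole array, 263 of 22206 probe sets (1.18%) shared all 3 averages with another probe set of the same chromosome, and on chromosome 4 with its scaffolds the count was 21 of 1351 (1.55%). Equal values among copies were part of how the block was picked out, so these shares are a description and nothing is read from their difference. Of the 9 sets of equal values on chromosome 4, several belong to the same block and are not members. Gm21966 and Gm10595 shared averages of 7.87, 10.86 and 10.56. A pair of Ccl27b probe sets on scaffolds shared 8.21, 10.23 and 11.14, and a pair of 4933409K07Rik probe sets shared 5.64, 7.12 and 7.24. Equal values were also found for probe sets of Ccl21 copies that showed no strain difference of 2-fold, such as Gm13304 with Ccl21b at 4.45, 4.41 and 4.20. Whether twins are made of the same probes was not tested, and each pair was counted as 1 measurement in an alternative count.

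The size of the strain difference varied among the gene families of the block. Of 6 probe sets that name a Fam205 gene, 5 were more than 2-fold higher in SAMP8, by 3.16 to 7.22, against 0.797% of all probe sets. These include both members that name Fam205a2, which were picked on this contrast, so nothing is read from the count. Fam205a1 had averages of 4.82 in SAMR1, 7.98 in SAMP8 and 8.17 with TG, while Fam205c, the exception, stood at 4.40, 4.24 and 3.84. The 5 probe sets of the related Spata31 genes differed between the strains by -0.72 to 0.20. The 4 probe sets that name Ccl27b were higher in SAMP8 by 2.02 to 2.14, against 4.04 for Ccl27a. They also stood higher with TG than without, by 0.77 to 0.91, where Ccl27a was lower by 0.11.

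Ccl19, a ligand of Ccr7, is named by 6 probe sets. Of these, 5 were higher in SAMP8 by 2.01 to 2.84, past the 2-fold limit that 0.797% of all probe sets passed. The remaining one had averages of 4.35, 4.67 and 5.39 in SAMR1, SAMP8 and TG-treated SAMP8. In the order of the probe set IDs, which largely runs along the chromosome, this one lies directly before the probe set of Gm1987 and Ccl21a and then that of Gm12394, the order in which RefSeq places Ccl19, Ccl21a and Gm12394. Which of the 6 measures the annotated Ccl19 and which its copies was not tested beyond this order. The 9 probe sets of Ccl21 genes and their copies had strain differences from -0.60 to 0.64. Of them 0 passed 2-fold, which with 0.797% of all probe sets higher and 1.43% lower is no result about these genes. The 5 probe sets of the interleukin 11 receptor genes Il11ra1 and Il11ra2 lay between -0.48 and 0.24. Their partners elsewhere in the genome showed strain differences of -0.12 for Ccr7, 0.04 for Ackr4, a scavenging receptor of these chemokines, 0.02 for Il11 and 0.58 for Il6st, the signalling chain of the interleukin 11 receptor. Ackr4 and Il11 had low SAMP8 averages, 4.1 and 3.58, against a median of 6.04 over all probe sets, so whether they were detected is unknown.

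**Figure D3:**
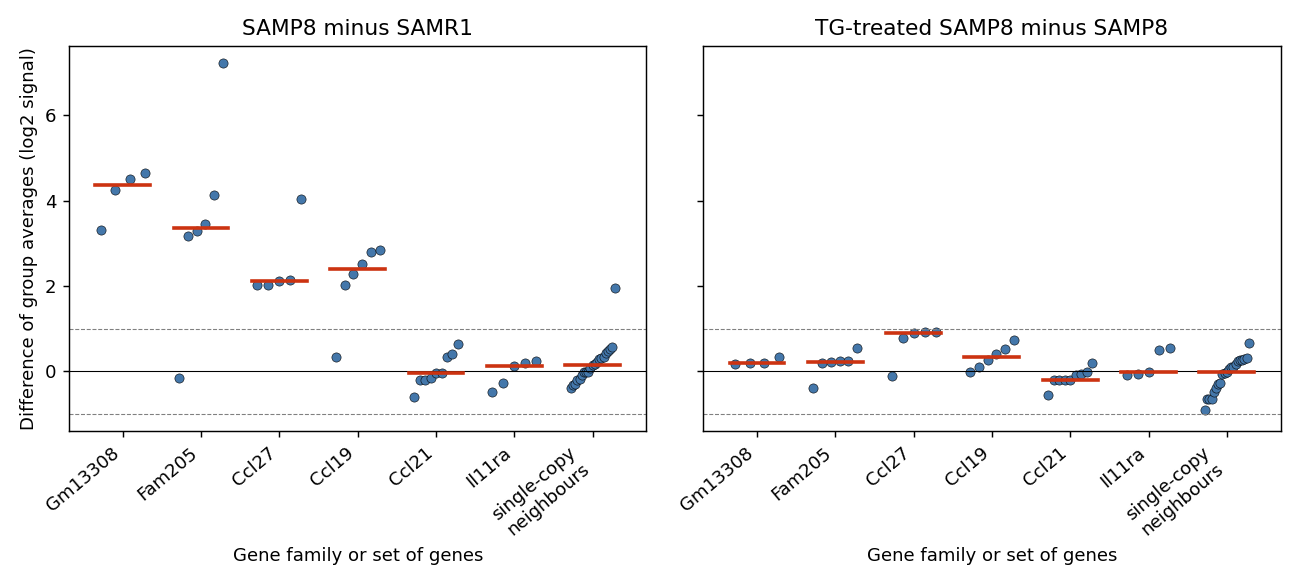
Differences of group averages (log2 signal, y axis) for SAMP8 minus SAMR1 on the left and TG-treated SAMP8 minus SAMP8 on the right, by gene family; each point is a probe set, red bars are medians and dashed lines mark 2-fold. The Gm13308 and Ccl27 probe sets and all but 1 each of Fam205 and Ccl19 lie above 2-fold on the left, the Ccl21 and Il11ra probe sets lie between -0.60 and 0.64 there, and no point passes 2-fold on the right.

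Along the chromosome, 18 probe sets that are not members name a gene that touches the span of the members. Of these, 8 were more than 2-fold higher in SAMP8 and 0 more than 2-fold lower, with a median strain difference of 0.705 over the 18. Over all probe sets 0.797% were higher and 1.43% lower by that limit, so the count of 0 lower is no result. Of the 15 nearest placed probe sets analysed below the span, 1 more was higher, Dctn3, and of the 15 above it 1, Fam205a1. Dctn3, a subunit of the dynactin complex, had averages of 10.36 in SAMR1, 12.30 in SAMP8 and 12.96 with TG, and its start lies at -54.7 kb from that of Ccl27a. Between it and Ccl27a, Arid3c differed between the strains by 0.07 and Galt, an enzyme of galactose metabolism, by -0.30. Il11ra1, which starts at -9.0 kb, overlaps Ccl27a and was counted with the span, differed by -0.27. On a list of genes taken as single-copy around the block, the 20 probe sets besides Dctn3, which include Arid3c, Galt, Cntfr, Vcp and Unc13b, differed between the strains by -0.39 to 0.56.

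**Figure D4:**
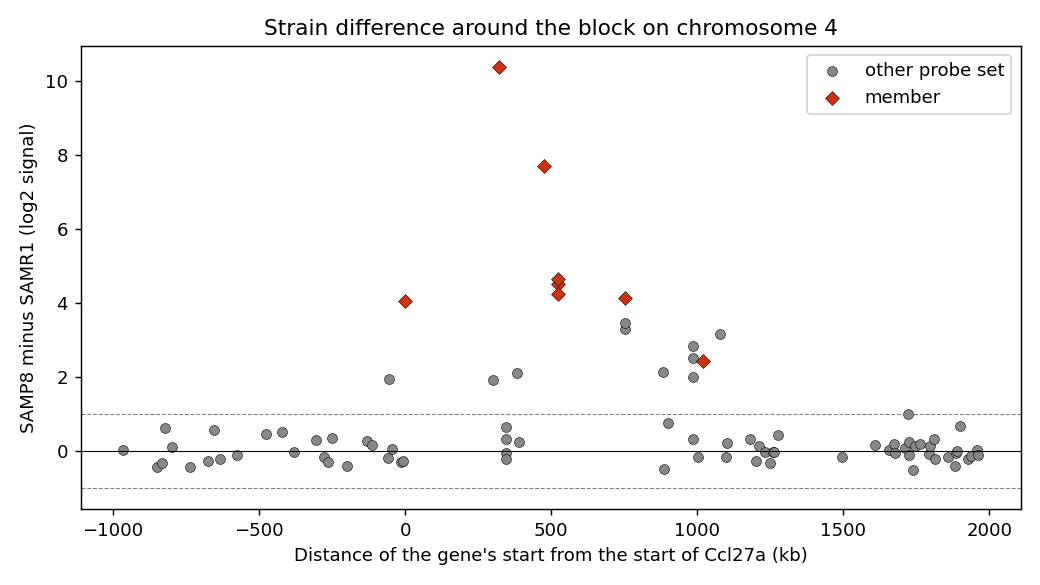
Strain difference (SAMP8 minus SAMR1, log2 signal, y axis) of 8 placed member probe sets and 78 others against the distance of the named gene's start from that of Ccl27a (kb, x axis), with diamonds for the members, grey circles for other probe sets and dashed lines at 2-fold; probe sets that share a symbol are drawn at the 1 position RefSeq gives it. Points above 2-fold begin with Dctn3 at -54.7 kb and run to Fam205a1 at 1078.6 kb, with 1 further point (Rmrp) beyond.

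Counted over the whole array, 36 probe sets were more than 4-fold higher in SAMP8 than in SAMR1. The members made up 14 of them, and other probe sets of the block or of the scaffolds a further 14. The rest of chromosome 4 held 1, Fam205a1 just above the span, and all other chromosomes together held 7. Among 134 probe sets of other chromosomes that passed 2-fold, 1 passed 10-fold, Abcb1a, which encodes a drug efflux pump of the blood-brain barrier. Ranked by the distance of both differences from the members' medians, the 5 probe sets most like the members were Abcb1a (distance 1.0), the probe set of Gm13298 and Fam205a4 (1.02), that of Gm13298 and Fam205a3 (1.18), Fam205a1 (1.31) and Nrip1 (1.51). Likeness was taken over 3 group averages only. Abcb1a stood at 6.50, 10.82 and 9.90, and Nrip1, a corepressor of nuclear receptors, at 8.06, 11.04 and 10.81 in SAMR1, SAMP8 and TG-treated SAMP8.

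Marker genes for other cells and tissues and for hippocampal neurons were covered by 40 probe sets. Of these, 1 was more than 2-fold higher in SAMP8 than in SAMR1, the meningeal gene Igf2, and 0 were more than 2-fold lower. Over all probe sets 0.797% were higher and 1.43% lower by that limit, so these counts are no result about the markers. The keratinocyte genes Krt5, Krt10 and Krt14 differed by -0.43 to -0.32. The testis genes Prm1, Prm2, Tnp1 and Acrv1 differed by -0.28 to -0.06. Of the genes of lymph node stroma and lymphatic endothelium, Pdpn differed by -0.86, Prox1, which is also on the list for hippocampal neurons, by 0.59, Lyve1 by 0.34 and Flt4 by 0.31. In SAMP8 the keratinocyte genes averaged 3.58 to 5.81, the testis genes 3.03 to 4.95, Lyve1 4.57 and Flt4 4.71. The median over all probe sets was 6.04 in SAMP8. Background was not measured, so whether these low genes were detected is unknown. All 3 astrocyte markers were higher in SAMP8, by 0.12 to 0.95, as were all 4 of choroid plexus, by 0.37 to 0.88. So were all 5 probe sets of thalamus markers, by 0.18 to 0.76, which measure Prkcd, Tcf7l2 and, more than once, Rora. Over all probe sets, 10984 of 22206 were higher in SAMP8, and these counts by direction were not tested. Microglial markers lay between -0.31 and 0.86, oligodendrocyte markers between -0.36 and 0.11, and the 6 neuronal markers between -0.01 and 0.70. Of the 5 meningeal markers, Igf2 differed by 1.58 and Ptgds by 0.87, and the others by -0.64 to -0.03. With TG, 72 of all 22206 probe sets were more than 2-fold lower than in untreated SAMP8 and 97 more than 2-fold higher. Of the 40 marker probe sets, 0 were more than 2-fold higher with TG and 3 more than 2-fold lower. These were Igf2 with a difference of -1.89, Ptgds with -2.69 and the thalamus gene Prkcd with -1.50, where the members lay between -0.31 and 0.54. All 3 are among the genes that the authors list as most lowered with TG. The marker lists were made with earlier results of these data known, so this count is no result about the markers. The other meningeal markers differed with TG by -0.77 for Dcn, -0.15 for Slc6a13 and 0.17 for Col1a2, and the other thalamus probe sets, of Rora and Tcf7l2, by -0.14 to 0.13. The part of astrocytes, choroid plexus, thalamus or meninges in the members' strain differences was not tested.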

How the data were processed

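Array intensities were processed by the authors with SST-RMA in the Transcriptome Analysis Console, on an mm10 (GRCm38) annotation. Each of 2 deposited tables gives 22206 probe sets with group averages, made by the authors, as log2 signal to 2 decimals. A further 3 columns per table, the authors' fold change, p-value and adjusted p-value, were not used. Folds given here are powers of 2 of the difference of rounded averages.

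Members and gene lists were chosen with earlier results of these data known. Named are all members, listed genes of the same families, their receptors or ligands, neighbours, markers and the 5 most alike probe sets. Symbols sharing a probe set with a member, copies with equal values and Rmrp were named after their values were seen. Genes were placed by RefSeq symbol or unambiguous older name, leaving out starts below 3000000, which are scaffold positions. A neighbouring gene is not reported here and was left out of the neighbour counts and plots. No sequence was read. Counts, medians and copies were computed in Python 3.11.15 with pandas 2.3.3 and numpy 2.4.6, after a test on simulated data. With 3 arrays behind each average, precision is limited by their number.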

Additional observations from a re-analysis of the deposited data

How the results depend on the processing

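The count of members higher in SAMP8 by more than 2-fold, 14, held at 1.5-fold and 4-fold, which 5.0% and 0.162% of all probe sets passed. It also held after centring each group on its median. It was 12 at 10-fold, 12 with twins counted once and 11 of 11 where every symbol of the probe set is a member. Leaving out the dimmest 25% of the array, by the mean over all 3 groups, also left 14. That mean includes the SAMP8 averages on which the members were picked, so this outcome is no support. The members' median strain difference of 4.46 became 4.51 after centring and 5.168 with 1 value per symbol. With TG, 0 members passed 2-fold or 1.5-fold, the latter against 8.21% of all probe sets, and 4 of 14 (28.6%) passed 1.2-fold, against 38.2% of all. The median difference with TG, 0.075, was 0.045 after centring, 0.18 with twins counted once and 0.095 per symbol. The 4 twins were the same in number within 0.05 and 0.2. Of the probe sets inside and beside the span, 10 that are not members were higher in SAMP8 by more than 2-fold, 11 with 30 probe sets on each side, 12 at 1.5-fold and 11 when placed by the order of the probe set IDs, an alternative added after the data were seen. No paired analysis was run and no single mouse was left out, because the averages used here give 1 value per group. Folds above low SAMR1 averages rest on signal whose background was not measured here.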
